A study of Mus musculus with 9 samples.

Results

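The genes described here are the secreted and membrane-bound matrix proteases of the MMP, ADAM and ADAMTS families, the related ADAMTSL proteins and the TIMPs, their inhibitors. They were chosen by name, as the protein-coding genes whose symbols begin with Mmp, Adam, Adamts or Adamtsl followed by a digit, or read Timp1 to Timp4. The rule found 83 of the 22092 genes in the count files: 33 ADAM, 22 MMP, 19 ADAMTS, 5 ADAMTSL and 4 TIMP genes. Ribosome-bound mRNAs had been purified by TRAP, in which GFP-tagged ribosomes are pulled down with GFP antibodies. All mice were 2 months old and carried the Aldh1L1-L10aGFP transgene (line Aldh1L1 JD130), in which the promoter of the astrocyte gene Aldh1l1, on a bacterial artificial chromosome, drives the tagged ribosomal protein. Whole astrocyte TRAP was made from 3 single brains without choroid plexus, and endfeet TRAP from 6 preparations of purified brain vessels, each of 8 pooled mice. Endfeet are the ends of astrocyte processes that cover brain vessels and stay attached to vessels when these are purified. There was no library of untagged mice or of RNA before the pull-down, so RNA carried along with the tagged ribosomes could not be measured.

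Matrix metalloproteinases (MMPs) are zinc enzymes that are made as inactive precursors and cut collagens, laminins and other matrix proteins once the propeptide is removed. ADAMs are membrane proteins, some of which cut off the outer parts of receptors and growth factors, while ADAMTS enzymes are secreted and cut proteoglycans such as versican and brevican or the ends of procollagens. ADAMTSL proteins resemble ADAMTS enzymes but have no protease domain. TIMPs bind the active site of MMPs and of some ADAM and ADAMTS enzymes, and at brain vessels the balance of proteases and TIMPs is known for its part in keeping the basement membrane that endfeet rest on.

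Of the 83 members, 46 had enough counts to be tested, 17 had no count in any library and 20 had few counts. Depth differed between the groups, from 35984144 to 43521208 gene counts in whole astrocyte libraries and from 2319495 (library 6) to 13450588 in endfeet libraries, so 3 counts were worth 0.0689 to 0.0834 CPM (counts scaled to library depth) in whole astrocyte and 0.223 to 1.29 CPM in endfeet libraries. Members took 0.213 to 0.453% of gene counts in endfeet libraries and 0.116 to 0.131% in whole astrocyte libraries. Besides astrocyte mRNAs the endfeet libraries held mRNAs of vessel cells. The summed level of 10 endothelial markers was 2689 to 5700 CPM against 6.95 to 9.02 CPM, that of 10 mural cell markers 3378 to 8464 against 43.6 to 50.1 CPM, and that of 10 fibroblast markers 685 to 1586 against 44.6 to 61.6 CPM, and all 30 were higher. The 10 astrocyte markers summed to 10997 to 29855 CPM in endfeet libraries, against 23802 to 25614 CPM, with Aqp4 higher, Aldh1l1, Aldoc, Slc25a18 and Sox9 lower, and none at 0. Oligodendrocyte markers summed to 258 to 537 against 742 to 759 CPM, with 1 of 10 lower, and ependymal and choroid plexus markers to 6875 to 73039 against 89.0 to 1575 CPM, with 7 of 10 higher and the highest sum in endfeet library 1. The part of the RNA of these other cells in the differences below was not tested, and in such bulk samples fewer cells of a type and less RNA per cell cannot be told apart.

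The promoters of 5 members are shown because these genes mark the patterns described below: Timp3 and Adamts1, 1st and 4th among the members by level per length in endfeet TRAP, Timp4 and Mmp24, the tested members with all endfeet libraries below all whole astrocyte libraries, and Mmp13, which stands for the MMP cluster with hardly any counts. Each window runs from 250 bases before to 50 bases after the start given by RefSeq (GRCm38.p6) and is written along the gene's strand. Capitals mark the AP-1 motif TGANTCA, the GC box GGGCGG and the TATA motif TATAAA, found on either strand. The windows are chr10:86300162-86300461 (plus strand) for Timp3, chr6:115252156-115252455 (minus) for Timp4, chr16:85803064-85803363 (minus) for Adamts1, chr2:155775092-155775391 (plus) for Mmp24 and chr9:7272264-7272563 (plus) for Mmp13.
Timp3: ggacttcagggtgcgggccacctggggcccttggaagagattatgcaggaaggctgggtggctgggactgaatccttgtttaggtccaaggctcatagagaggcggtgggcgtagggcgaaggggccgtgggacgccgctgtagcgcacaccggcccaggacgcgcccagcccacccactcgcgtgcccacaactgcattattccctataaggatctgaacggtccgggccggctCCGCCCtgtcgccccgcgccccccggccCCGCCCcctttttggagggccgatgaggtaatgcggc
Timp4: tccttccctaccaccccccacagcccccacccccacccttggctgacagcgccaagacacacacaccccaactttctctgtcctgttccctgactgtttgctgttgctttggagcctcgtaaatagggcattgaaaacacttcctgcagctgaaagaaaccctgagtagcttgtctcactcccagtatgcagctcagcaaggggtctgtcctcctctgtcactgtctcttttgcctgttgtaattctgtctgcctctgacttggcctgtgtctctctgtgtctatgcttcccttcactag
Adamts1: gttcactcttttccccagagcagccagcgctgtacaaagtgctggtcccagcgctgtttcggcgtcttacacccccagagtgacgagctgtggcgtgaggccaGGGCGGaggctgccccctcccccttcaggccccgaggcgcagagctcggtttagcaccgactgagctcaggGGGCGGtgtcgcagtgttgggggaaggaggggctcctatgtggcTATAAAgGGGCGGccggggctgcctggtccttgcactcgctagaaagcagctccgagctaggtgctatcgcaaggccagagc
Mmp24: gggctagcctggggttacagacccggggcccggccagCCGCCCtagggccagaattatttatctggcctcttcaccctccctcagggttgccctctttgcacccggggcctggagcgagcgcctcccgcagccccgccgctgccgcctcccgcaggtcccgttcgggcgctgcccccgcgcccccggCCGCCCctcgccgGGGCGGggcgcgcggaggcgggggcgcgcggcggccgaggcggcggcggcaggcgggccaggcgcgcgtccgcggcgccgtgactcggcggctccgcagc
Mmp13: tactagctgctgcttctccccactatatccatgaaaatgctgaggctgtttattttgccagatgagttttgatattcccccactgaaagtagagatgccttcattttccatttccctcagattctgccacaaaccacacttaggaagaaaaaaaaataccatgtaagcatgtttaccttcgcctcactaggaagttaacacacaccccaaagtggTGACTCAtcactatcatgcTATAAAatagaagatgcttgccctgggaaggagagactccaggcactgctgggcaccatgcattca

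Promoter windows were found for 52 of the 83 members. For Adamts20, Adam34, Adam1a and Mmp11 the start used lay 61068, 44489, 23787 and 3994 bases from the start of the gene as annotated for counting. A GC box was present in 76.7% of the 30 windows of tested members, in 13.6% of the 22 windows of untested members and in 48.4% of the windows of 16446 genes. TATAAA was present in 6.67% of the windows of tested members, in 11 of the 22 of untested members and in 12.6% of all windows. For the AP-1 motif the shares were 3.33%, 45.5% and 6.91%. The windows of tested members had a median G and C content of 66.7%, against 42.2% for untested members. The Mmp13 window held both an AP-1 and a TATA motif, that of Timp4 held none of the 3 motifs, and that of Adamts1 held 3 GC boxes and a TATA motif. These are matches of letters and were not tested as sites. The windows of all genes were not split into tested and untested genes, so whether the contrast is particular to these families was not examined.

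Endfeet TRAP was compared with whole astrocyte TRAP to ask which mRNAs on astrocyte ribosomes are more or less abundant at the vessels. Of the 46 tested members, 21 were higher in endfeet TRAP (45.7%, against 20.7% of the 14427 genes tested) and 1, Timp4, was lower (2.17%, against 13.9%), with edgeR's quasi-likelihood test at an adjusted p of 0.05. The median log2 fold change of the tested members was 2.57 and that of all genes tested 0.10. In 15 tested members every endfeet library lay above every whole astrocyte library (32.6%, against 19.1% of all genes), and in 2, Timp4 and Mmp24, every one lay below (4.35%, against 23.3%). Members with a mean above 50 normalized counts (counts divided by the library's size factor) numbered 40 in endfeet TRAP, against 19 in whole astrocyte TRAP, and these 19 were among the 40. Of all 22092 genes, 12198 exceeded this level by their endfeet mean, 10990 by their whole astrocyte mean and 10319 by both means. By family, 8 of 11 tested ADAMs, 8 of 16 ADAMTS, 2 of 5 ADAMTSL, 1 of 10 MMPs and 2 of 4 TIMPs were higher by edgeR. The other tools called more MMPs (5 of 11 with DESeq2 and 5 of 10 with limma voom) and ADAMTS genes (11 of 16 with each) higher, 9 of 16 and 9 of 11 ADAMs, 2 of 5 ADAMTSL genes with each, and 2 and 3 of the 4 TIMPs. Endfeet libraries varied more among themselves: the median coefficient of variation of the members was 84.2% there and 16.4% in whole astrocyte TRAP. Over all genes tested the medians were 64.7% and 9.70%. Endfeet library 1 held the highest endfeet value of 12 tested members and the lowest of 16, and library 6, the shallowest, the lowest of 18. DESeq2 called 29 of 52 members higher (25.0% of all genes it tested) and 1 lower (15.7%), and limma voom 30 of 46 higher (27.2%) and 2, Timp4 and Mmp24, lower (31.1%). Of the 22 edgeR calls, 16 held when any single library was left out.

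**Figure D1:**
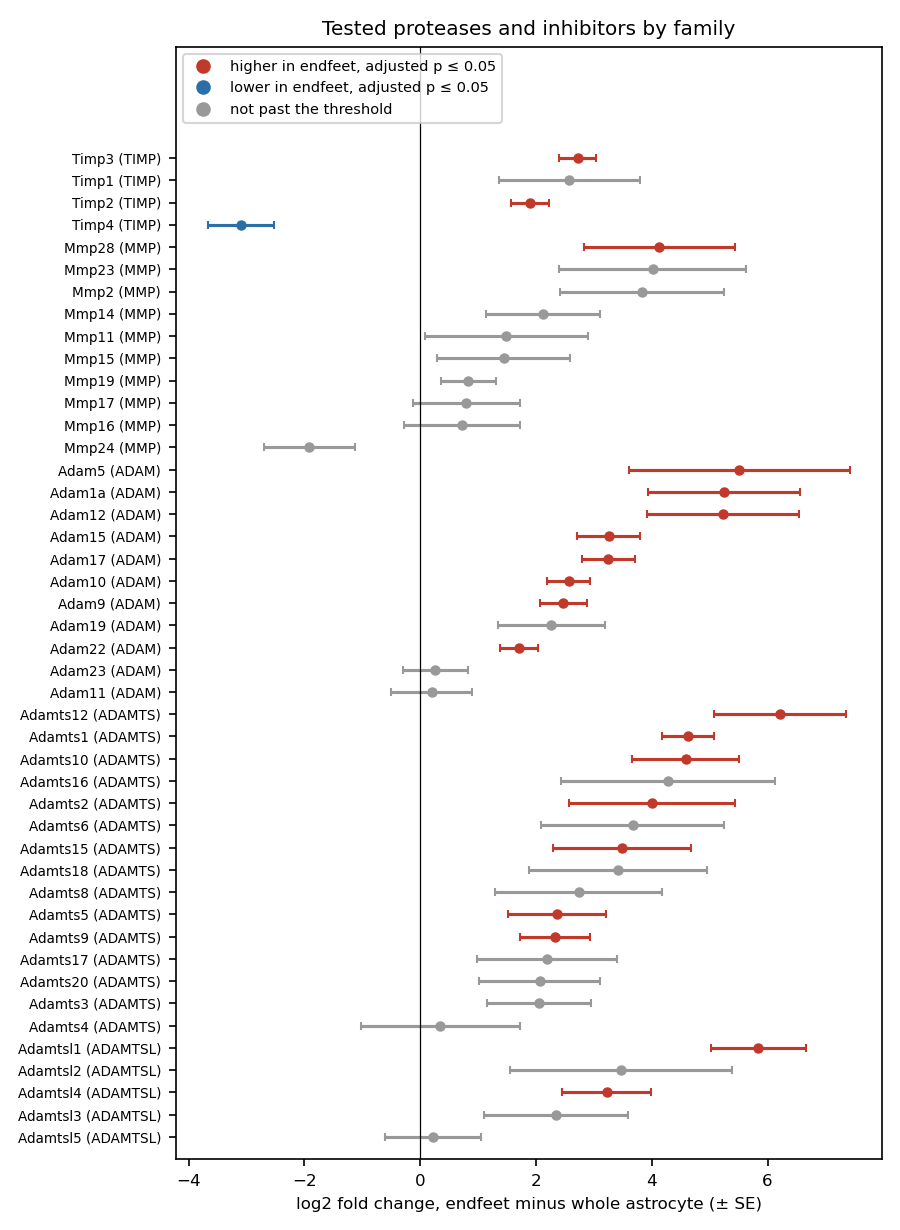
Log2 fold change of endfeet TRAP minus whole astrocyte TRAP (x axis, ± SE) for tested members with a count in both groups, grouped by family. Red points are higher and the blue point, Timp4, is lower at an adjusted p of 0.05, and grey points did not pass. Mmp24 is the other member left of 0. Adamts14, with no count in whole astrocyte TRAP, is not drawn.

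Of the TIMPs, Timp2 and Timp3 were higher and Timp4 was lower in endfeet TRAP. Timp3, an inhibitor that binds to the extracellular matrix and also acts on ADAM17 and ADAMTS enzymes, had 3465, 2985 and 3446 normalized counts in the whole astrocyte libraries, and 13543, 20471 and 31248 as the lowest, median and highest value of the endfeet libraries. Every endfeet library lay above every whole astrocyte library, and the log2 fold change was 2.72 (SE 0.32, adjusted p = 3.42e-05). Timp2, the inhibitor that also takes part in the activation of proMMP2 by MMP14, had 1542, 1594 and 2022 normalized counts in whole astrocyte libraries. In endfeet libraries it had 3679, 6057 and 10391 (lowest, median, highest), again without overlap, and the log2 fold change was 1.90 (SE 0.33, adjusted p = 0.000716).

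Timp4, an inhibitor known for its high level in brain and heart, had 5363, 5711 and 6109.7 normalized counts in the whole astrocyte libraries. In endfeet libraries 1 to 6 it had 1401, 526, 614, 738, 707 and 43.3, all below the whole astrocyte libraries. Library 1 was the highest of these and library 6, with the fewest counts, the lowest. The log2 fold change was -3.10 (SE 0.57, adjusted p = 0.0011), and leaving out any single library gave values from -3.41 to -2.85. Timp1, the inhibitor that many cells induce in inflammation, was near the limit of detection, with 0.675 to 3.44 normalized counts in whole astrocyte and 0 to 39.3 in endfeet libraries, and did not pass the test (log2 fold change 2.58, SE 1.22, adjusted p = 0.12), but did with limma voom (adjusted p = 0.0321). With only endfeet libraries 4 to 6, which share a number series with the whole astrocyte libraries in the deposited files, the log2 fold changes were 2.47 for Timp3, 1.52 for Timp2 and -3.62 for Timp4, all past the threshold.

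**Figure D2:**
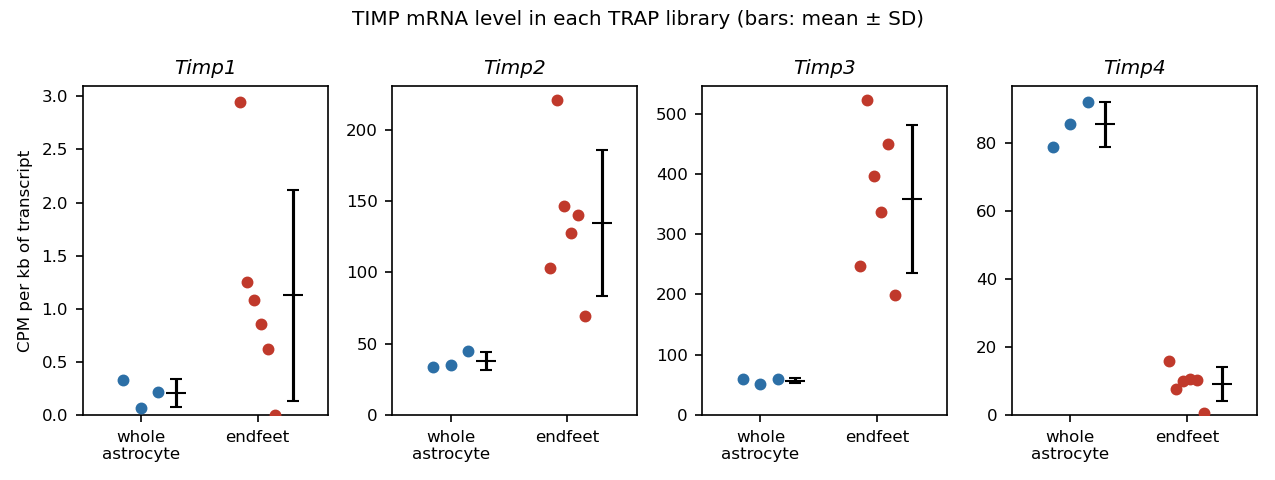
Level of the 4 TIMP mRNAs in CPM per kb (y axis, a scale of its own in each panel) in whole astrocyte (blue, n = 3) and endfeet (red, n = 6) libraries, with mean ± SD in black. Endfeet values of Timp3 (up to 522) and Timp2 (69.2 to 221) all lie above, and those of Timp4 (0.549 to 16.0) all below, the whole astrocyte values.

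To compare levels between genes, counts were divided by the length of the counted transcript. In whole astrocyte TRAP the order of the levels was Timp4 (85.4 ± 6.65 CPM per kb, SD, n = 3), Timp3 (57.2 ± 4.57), Timp2 (38.0 ± 6.24) and Timp1 (0.207 ± 0.134), and no ranges of neighbours overlapped. In endfeet TRAP the order was Timp3 (359 ± 122, n = 6), Timp2 (135 ± 51.0), Timp4 (9.14 ± 5.03) and Timp1 (1.13 ± 0.994). The ranges of Timp3 and Timp2, and those of Timp4 and Timp1, overlapped between libraries. Timp4 thus made up 45.8 to 49.4% of the summed TIMP level in whole astrocyte libraries and 0.204 to 4.33% in endfeet libraries, while Timp3 made up 30.1 to 34.5% and 67.0 to 74.8%. Timp4 was the member with the highest level per length in whole astrocyte TRAP and ranked 11th in endfeet TRAP, where Timp3 ranked 1st and Timp2 2nd. The summed TIMP level divided by the summed level of MMPs, ADAMs and ADAMTS enzymes was 2.62 to 2.88 in whole astrocyte libraries. In endfeet libraries 1 to 6 it was 1.67, 3.12, 2.05, 2.21, 2.60 and 1.49. Library 2 lay above the whole astrocyte range and the other endfeet libraries below it, and this ratio was not tested. The ADAMs in the divisor include Adam11, Adam22 and Adam23, which have no protease activity. These summed to 11.8 to 14.8 CPM per kb in whole astrocyte and 15.6 to 31.6 in endfeet libraries. The whole divisor was 60.8 to 68.6 and 181 to 271. That library 2 lay above the whole astrocyte range depends on including them.

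**Figure D3:**
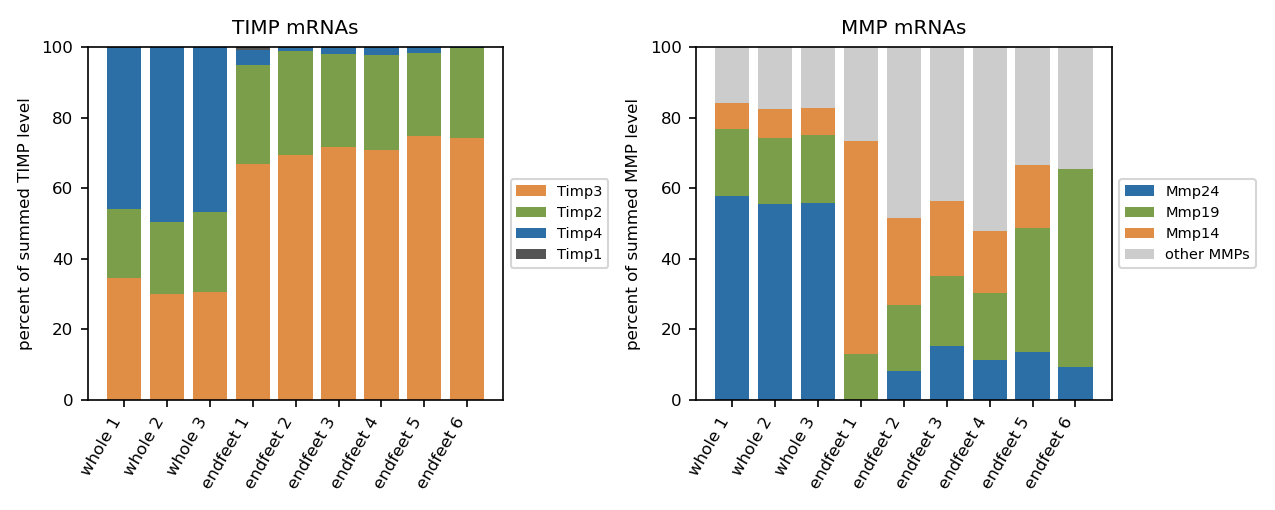
Share of each TIMP in the summed TIMP level (left, percent) and of Mmp24, Mmp19 and Mmp14 in the summed MMP level (right, percent), in CPM per kb, for each library. Timp4 holds 45.8 to 49.4% and Mmp24 55.4 to 57.8% of the bars of whole astrocyte libraries, and at most 4.33% and 15.4% of those of endfeet libraries.

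Timp1, Timp3 and Timp4 lie inside the synapsin genes Syn1, Syn3 and Syn2, on the opposite strand, as the annotation places them (chrX:20870166-20874735, chr10:86300372-86349506 and chr6:115241892-115252205, GRCm38). Whether counting used strand is not given in the sources used here. The counted Timp3 transcript shares 1733 exon bases, 36.7% of its length, with a Syn3 transcript. That Syn3 transcript had 51.1 to 63.9% as many counts as Timp3 in every library, while Syn3 transcripts that share no bases with Timp3 had at most 260 counts, so in these counts the reads of this stretch cannot be told apart between both genes. A Timp3 transcript that shares none of these bases had 156 to 191 normalized counts in whole astrocyte and 177 to 763 in endfeet libraries, and its log2 fold change was 1.75 (SE 0.51, adjusted p = 0.0179). Its groups overlapped, since endfeet library 1 lay within the whole astrocyte range. Timp4 shares 1.64% of its transcript with Syn2.

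Among the MMPs, Mmp24 (MT5-MMP), a membrane-bound enzyme known mainly from neurons, stood out in whole astrocyte TRAP. It had 909, 862 and 1001 normalized counts there and 2.45, 231, 429, 349, 345 and 98.9 in endfeet libraries 1 to 6. All endfeet libraries were below, but the difference did not pass the main test (log2 fold change -1.92, SE 0.79, adjusted p = 0.0765). It passed when endfeet library 1, the lowest, was left out (-1.65, adjusted p = 0.00997), with endfeet libraries 4 to 6 only (-1.91, adjusted p = 0.0187) and with limma voom (-2.37, adjusted p = 0.00585). Mmp24 held 55.4 to 57.8% of the summed MMP level in whole astrocyte and 0.141 to 15.4% in endfeet libraries. It shares 14.8% of its transcript with BC029722 on the opposite strand. The 10 neuron markers summed to 3830 to 4366 CPM in whole astrocyte and 1044 to 1906 CPM in endfeet libraries, with 4 of them lower, and their part in the Mmp24 values was not tested.

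Mmp28 (epilysin), a secreted MMP, was the only MMP that passed with edgeR, with 7.58, 5.06 and 9.72 normalized counts in whole astrocyte and 0, 82.9 and 335 (lowest, median, highest) in endfeet libraries. Its log2 fold change was 4.13 (SE 1.30, adjusted p = 0.0262), and the call was lost without endfeet library 4 or any whole astrocyte library (adjusted p = 0.0525 to 0.116). Mmp28 shares 13.6% of its transcript with 1700020L24Rik on the opposite strand. Mmp14 (MT1-MMP), which activates proMMP2 at the cell surface, had 71.7 to 81.6 normalized counts in whole astrocyte TRAP. In endfeet libraries 1 to 5 it had 271 to 635, and in library 6 none. The difference did not pass (log2 fold change 2.12, SE 0.98, adjusted p = 0.112), but did without library 6 (2.39, adjusted p = 0.00177), with DESeq2 (adjusted p = 0.0326) and with limma voom (adjusted p = 0.0222). With endfeet libraries 4 to 6 only it was 1.27 and did not pass. Mmp2 (gelatinase A), which cuts type IV collagen, had 6.55 to 8.44 normalized counts in whole astrocyte libraries and 0 to 214 in endfeet libraries. It was just short of the threshold (log2 fold change 3.83, SE 1.41, adjusted p = 0.0509) and passed without endfeet library 1 (adjusted p = 0.00543) or library 6 (adjusted p = 0.0276), with DESeq2 (adjusted p = 0.00182), with limma voom (adjusted p = 0.0074) and with endfeet libraries 4 to 6 only (adjusted p = 0.0238). Mmp19 had 231 to 274 normalized counts in whole astrocyte and 179 to 709 in endfeet TRAP and did not pass (log2 fold change 0.83, SE 0.48, adjusted p = 0.198). It did pass without endfeet library 1 (adjusted p = 0.0461) and with limma voom (adjusted p = 0.0329). Mmp19 shares 23.2% of its transcript with Tmem198b on the opposite strand. The membrane-bound Mmp15, Mmp16 and Mmp17, and Mmp11 and Mmp23, did not pass with edgeR either, with log2 fold changes from 0.72 to 4.02. Of these, Mmp23 passed with DESeq2 (adjusted p = 0.0157) and limma voom (adjusted p = 0.0186).

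The remaining MMPs were hardly counted. Mmp25 had 44 counts in all, from 4 endfeet libraries. It was not tested with edgeR, but was higher with DESeq2 (adjusted p = 0.031). The cluster on chromosome 9 (chr9:7272514-7699585) holds 9 MMP genes, among them the collagenase Mmp13, the stromelysins Mmp3 and Mmp10 and the macrophage elastase Mmp12. None was tested and 6 had no count in any library. Mmp12 had 70 and Mmp8, the neutrophil collagenase, 95 of their counts in endfeet library 3, and Mmp9 (gelatinase B) had 42 in endfeet library 2. The summed level of 10 neutrophil markers was 42.2 to 266 CPM in endfeet and 0.832 to 1.77 CPM in whole astrocyte TRAP. It was 96.0 and 103 CPM in endfeet libraries 2 and 3. The highest sum was that of endfeet library 6, in which Mmp8, Mmp9 and Mmp12 had no count. All 5 tested neutrophil markers were higher, while Ly6g, Camp, Elane and Retnlg were at 0 in both groups. The 10 microglia and macrophage markers summed to 175 to 405 CPM in endfeet TRAP, against 20.1 to 24.7 CPM, with 7 higher. Whether these values bear on those of Mmp8, Mmp9 and Mmp12 was not tested.

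**Figure D4:**
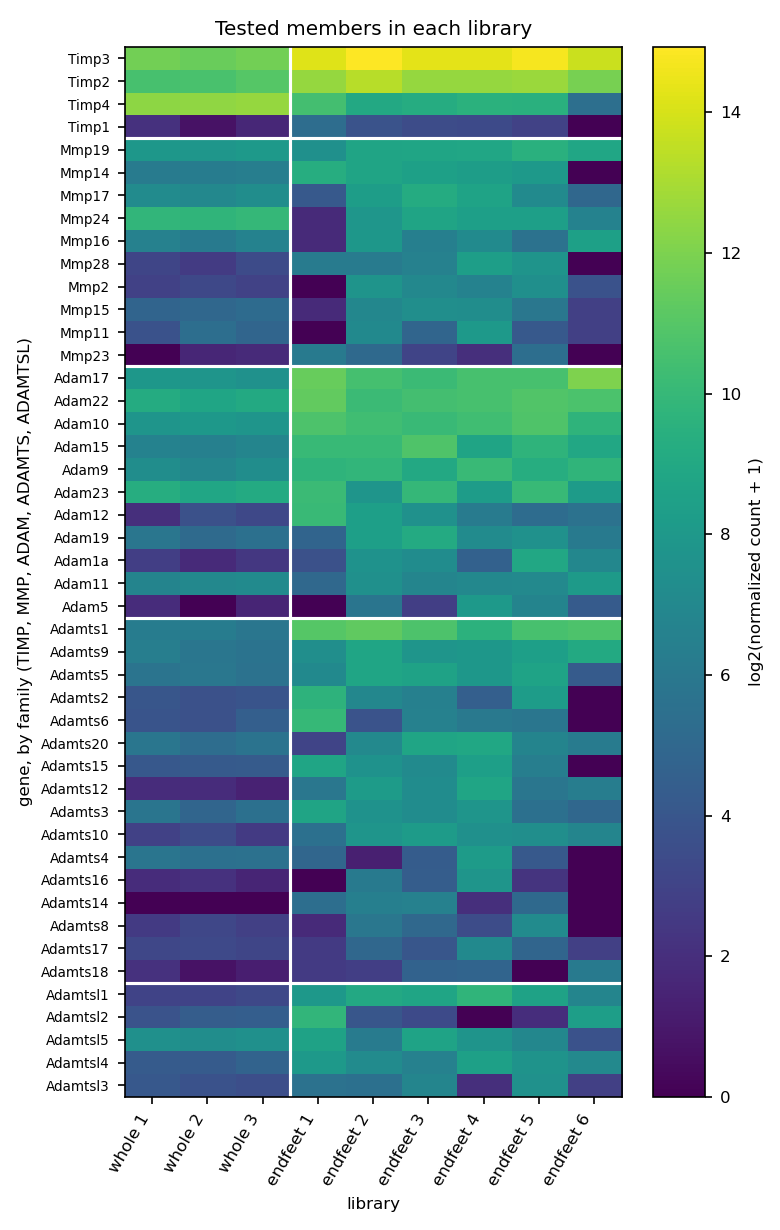
Log2 of normalized count + 1 (colour) of the 46 tested members (y axis, by family and level) in the 3 whole astrocyte and 6 endfeet libraries (x axis). Timp3, Timp2 and the sheddases Adam17 and Adam10 are bright in every endfeet library, Timp4 and Mmp24 are brighter in whole astrocyte libraries, and many ADAMTS genes range from 0 to bright among endfeet libraries.

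Adam17 and Adam10 are the main sheddases, which release the outer parts of TNF, growth factors, APP and Notch from the cell surface. Adam17 had 243, 220.1 and 186 normalized counts in the whole astrocyte libraries and 1171, 1544 and 4193 (lowest, median, highest) in the endfeet libraries. Adam10 had 216, 245 and 219.6 in whole astrocyte and 847, 1302 and 1826 in endfeet libraries. Neither overlapped between the groups, and the log2 fold changes were 3.25 (SE 0.46, adjusted p = 0.000135) and 2.56 (SE 0.37, adjusted p = 0.000159). Adam9, another sheddase, had 116 to 161 normalized counts in whole astrocyte and 525 to 1094 in endfeet libraries (log2 change 2.47, SE 0.41, adjusted p = 0.000496). Adam15, which carries an integrin-binding RGD motif in humans and is known from vessels, had 88.1 to 112 and 427 to 1830.0 (log2 fold change 3.26, SE 0.55, adjusted p = 0.000517). Its log2 fold change was 2.42 with endfeet libraries 4 to 6 only. Adam15 shares 18.8% of its transcript with 4731419I09Rik on the opposite strand.

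Adam12 was low in whole astrocyte TRAP, with 3.10 to 12.2 normalized counts, and had 37.7, 129 and 1126 (lowest, median, highest) in endfeet TRAP. The highest value was that of endfeet library 1 and the lowest that of library 5. Fibroblast markers summed to 1586 CPM in library 1 and 1533 CPM in library 5, and their part in the Adam12 values was not tested. The log2 fold change was 5.23 (SE 1.32, adjusted p = 0.00808), and 4.12 to 5.66 without a single library. It was 2.62 with endfeet libraries 4 to 6 only and 2.75 with the number series as a covariate, past the threshold in both. Adam1a (4.22 ± 1.76 and 164 ± 173 normalized counts, SD, n = 3 and 6) was also higher, but shares 22.1% of its transcript with another gene on the same strand. Adam5, a gene known from sperm, passed only weakly (adjusted p = 0.0400), with 0 to 260 normalized counts among endfeet libraries, and lost the call without endfeet library 2, 4 or 5 or any whole astrocyte library (adjusted p up to 0.134). Adam19 had 35.1 to 57.9 in whole astrocyte and 27.0 to 549 in endfeet libraries and did not pass (log2 fold change 2.27, SE 0.92, adjusted p = 0.0734), but passed once endfeet library 1 (adjusted p = 0.0166) or 6 (adjusted p = 0.0396) was left out, with DESeq2 (adjusted p = 0.0115), with limma voom (adjusted p = 0.00474) and with at least 10 counts required in every library (adjusted p = 0.0376).

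Adam11, Adam22 and Adam23 have no protease activity and are cell-surface receptors of LGI proteins in the nervous system. Adam22 was higher in endfeet TRAP, with 588, 434 and 530 normalized counts in whole astrocyte and 1155, 1598 and 2579 (lowest, median, highest) in endfeet libraries (log2 change 1.71, SE 0.33, adjusted p = 0.00138). Adam23 had 465 to 633 and 218 to 1163, and Adam11 had 104 to 139.6 and 31.9 to 278. Their groups overlapped and they did not pass (log2 fold changes 0.26, SE 0.56, and 0.20, SE 0.70), and their sign turned in 1 of 9 fits without a single library.

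A further 22 ADAM genes were not tested, 11 of them without a count in any library. They include the clusters on chromosome 8 at chr8:40675077-40827037 (4 genes) and chr8:43519762-43710049 (3 genes), in which no gene had a count, and Adam8, a leukocyte sheddase with 35 of its 49 counts in endfeet library 2.

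Adamts1, which cuts aggrecan and versican and is known to inhibit vessel growth, was the most abundant ADAMTS mRNA of endfeet TRAP. It had 75.4, 76.0 and 56.1 normalized counts in whole astrocyte and 772, 1749.8 and 2489 (lowest, median, highest) in endfeet libraries, without overlap. The log2 fold change was 4.62 (SE 0.45, adjusted p = 6.52e-06), and 4.12 with endfeet libraries 4 to 6 only. Adamts1 made up 24.5 to 72.1% of the summed ADAMTS level in endfeet and 17.3 to 23.4% in whole astrocyte libraries, so endfeet libraries exceeded all whole astrocyte libraries in this share.

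Among the other proteoglycanases, Adamts9 had 63.6 ± 17.5 normalized counts (SD, n = 3) in whole astrocyte and 164 to 532 in endfeet libraries, without overlap (log2 fold change 2.32, SE 0.61, adjusted p = 0.00974), and lost the call without whole astrocyte library 2 or 3 (adjusted p = 0.0621 and 0.0657). Adamts5, the neighbour of Adamts1 (both within chr16:85793827-85901828), had 47.7 to 58.4 and 18.6 to 433 (log2 fold change 2.36, SE 0.85, adjusted p = 0.0464), with library 6 below the whole astrocyte range. Adamts15 had 16.5 to 18.6 and 0 to 429 (log2 fold change 3.49, SE 1.19, adjusted p = 0.0369). Adamts5, Adamts15 and the procollagen proteinase Adamts2 lost their calls in 7, 6 and 7 of 9 fits without a single library, and none of these 3 passed within endfeet libraries 4 to 6. Adamts4, a brevican-cutting enzyme, had 44.2 to 54.8 normalized counts in whole astrocyte and 0 to 294 in endfeet libraries, and did not pass (log2 fold change 0.35, SE 1.37, adjusted p = 0.867). The highest value was that of library 4, without which the log2 fold change was -1.94. Adamts20 had 39.8 to 57.2 normalized counts in whole astrocyte and 7.36 to 474 in endfeet libraries. It did not pass with edgeR (log2 fold change 2.06, SE 1.04, adjusted p = 0.144), except in 1 of 9 fits without a single library (adjusted p = 0.0292). Adamts8 did not pass with edgeR either.

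Adamts10, an enzyme linked to fibrillin microfibrils, and Adamts12 were low in whole astrocyte TRAP and higher in every endfeet library. Adamts10 had 4.72 to 9.45 and 44.2 to 292 normalized counts (log2 fold change 4.58, SE 0.93, adjusted p = 0.00196). Adamts12 had 1.67 to 2.76 and 56.5 to 436 (log2 fold change 6.21, SE 1.14, adjusted p = 0.00102). Of the procollagen proteinases, Adamts14 had no count in the whole astrocyte libraries and 0 to 92.2 normalized counts in endfeet libraries. Against 3 counts per whole astrocyte library its endfeet mean was at least 41.3-fold higher (adjusted p = 0.00561). Adamts2 had 11.8 to 15.2 and 0 to 802 normalized counts (adjusted p = 0.0454), and Adamts3 had 28.7 to 53.7 and 30.9 to 420 and did not pass (log2 fold change 2.05, SE 0.90, adjusted p = 0.094). Adamts3 and Adamts16 passed with both DESeq2 and limma voom, Adamts18 with DESeq2 and Adamts20 with limma voom. Adamts13, which cuts von Willebrand factor, had 6 counts over all libraries and was not tested.

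Of the ADAMTSL genes, Adamtsl1 (punctin) had 6.89, 7.09 and 8.33 normalized counts in whole astrocyte and 111, 415 and 881 (lowest, median, highest) in endfeet libraries, without overlap (log2 fold change 5.84, SE 0.83, adjusted p = 0.000141). Adamtsl4, a fibrillin-binding protein, had 18.3 to 26.4 and 94.7 to 354 (log2 fold change 3.22, SE 0.76, adjusted p = 0.00546). Adamtsl5 had 157 to 183 and 12.4 to 409 and did not pass (log2 fold change 0.22, SE 0.82, adjusted p = 0.858). Adamtsl2 had 13.1 to 20.8 normalized counts in whole astrocyte libraries and 0 to 905 in endfeet libraries, with high values in libraries 1 and 6 alone, and did not pass (adjusted p = 0.179).

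Genes that activate, inhibit or are cut by these proteases were examined as 6 lists of 58 genes in all, of which 53 were tested. Of these, 41 were higher in endfeet TRAP (20.7% of all genes tested were) and none was lower by edgeR (13.9% of all genes), also at an unadjusted p of 0.05, or by DESeq2, whereas limma voom called 1, Frmd8, lower. The proprotein convertase Furin, which removes propeptides of ADAMs and membrane-bound MMPs, had 46.5 to 54.7 normalized counts in whole astrocyte and 247 to 729 in endfeet libraries (log2 change 3.08, SE 0.55, adjusted p = 0.000864). Pcsk5 also passed, but not without endfeet library 2, 3 or 4 or any whole astrocyte library (adjusted p up to 0.133), and Pcsk6 and Pcsk7 did not. Of 6 tested inhibitors, clearance factors and testicans, 4 were higher. Reck, a membrane-anchored MMP inhibitor, had a log2 fold change of 5.90 (SE 0.40), and A2m, which traps proteases, of 5.10 (SE 0.92). For Lrp1, the receptor that takes up proteases and their complexes with inhibitors, it was 4.07 (SE 0.45). For the testican Spock2 it was 4.62 (SE 0.37).

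The partners that bring ADAM10 and ADAM17 to the cell surface were less uniform, with 3 of 8 tested genes higher. Rhbdf2 (iRhom2), a carrier of ADAM17, had 0 to 4.16 normalized counts in whole astrocyte and 28.2 to 563 in endfeet libraries (log2 change 6.79, SE 1.45, adjusted p = 0.00286). Tspan17 and Tspan33, which belong to the tetraspanins that bind ADAM10, were higher by 2.54 and 2.06 on the log2 scale, and lost their calls without single libraries (adjusted p up to 0.156 and 0.123). Rhbdf1, Frmd8, Tspan5, Tspan14 and Tspan15 did not pass. All 7 tested MMP inducers were higher, among them Bsg (log2 fold change 4.19) and Cd44 (3.93).

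Of 13 tested matrix substrates 12 were higher, with log2 fold changes from 1.13 for the perineuronal proteoglycan Bcan to 8.90 for Fn1 (fibronectin), and the other, Vcan, did not pass. Dag1 (dystroglycan), the laminin receptor of endfeet, was higher by 2.35 (SE 0.29, adjusted p = 4.65e-05). Of 15 tested shed membrane proteins 13 were higher, among them App (2.66), Notch1 (3.43) and the TNF receptor Tnfrsf1b (6.29), while Prnp and Hbegf did not pass and Tnf had too few counts to be tested. Col1a1, Col3a1 and Cdh5 of these lists are also among the fibroblast and endothelial markers.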

How the data were processed

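Ribosome-bound mRNAs of 3 whole astrocyte TRAP and 6 endfeet TRAP libraries were amplified with the Ovation kit of NuGEN and sequenced. The authors aligned the reads to mm10 with Bowtie, dropped multiply aligned reads and counted the rest over Ensembl annotation by HTSeq 0.5.3. The deposited values are raw counts per transcript, neither normalized nor pooled. Strand use in counting is not given in the sources used here.

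Of 75466 transcripts, 73164 were matched to GENCODE genes of the same build, and the transcript of highest summed CPM stood for its gene. The members, gene lists and markers were chosen with earlier results of these data known. Groups were compared with edgeR 4.0.16 in R 4.3.3 (TMM, filterByExpr, glmQLFit and glmQLFTest) with Benjamini-Hochberg adjustment over all genes tested and a threshold of 0.05. The SE was obtained from the size of the change and the F of the test. Libraries are separate brains or separate pools, so p-values measure the spread between these. Normalized counts used size factors of DESeq2 1.42.0, and levels per length divided CPM by the length of the counted transcript. A floor of 3 counts covers counting error only. DESeq2, limma 3.58.1 with voom and group weights, other filters and scalings, and each library left out were alternatives. The Timp3 transcript without shared bases was added after seeing the data. Named members were the TIMPs, the 4 members of highest level per length in each family, the 4 of largest change in each direction among those past the threshold and above 50 normalized counts, and well-known enzymes of each family. Other members are named with single values, and Mmp8 and Mmp12 were singled out after their values were seen. The test was tried on simulated counts with known changes, and the outcome is not given here. Dispersion was 0.725 in endfeet and 0.0141 in whole astrocyte libraries.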

Additional observations from a re-analysis of the deposited data

Results flagged for a closer look

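Of 39 named members, 6 had a single endfeet library that stood apart from the other 5 by Dixon's criterion for 6 samples at the 95% level. Chance flags about 1 in 20 such groups where values are normally distributed. That was not checked for these counts, so the chance rate here is not known. Library 1 stood apart for Adam12, with 1126 normalized counts against 37.7 to 349.9 in the others, for Adamtsl2, with 905 against 0 to 334, and for Timp1, with 39.3 against 0 to 13.2. Library 2 stood apart for Adam8, with 51.2 normalized counts against 0 to 2.49, and for Mmp9, with 61.5 against 0 to 3.32. Library 4 stood apart for Adamts4, with 294 normalized counts against 0 to 29.4.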

How the results depend on the processing

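With at least 10 counts required in every library, 16 members were tested, of which 13 were higher and 0 lower, since Timp4 had fewer in endfeet library 6. Of all 8480 genes tested with this filter, 2351 were higher and 1976 lower. Limma voom, and the fit with endfeet libraries 4 to 6 only, each called 2 members lower, Timp4 and Mmp24, and limma voom called 1 pathway partner, Frmd8, lower. Of all genes tested, 4485 of 14427 and 2819 of 14339 were lower in these 2 fits. Leaving out single libraries gave 15 to 27 members higher and 1 to 2 lower (2 without endfeet library 1), 35 to 44 partners higher and 0 lower, and 37 to 42 members above 50 normalized counts in endfeet and 19 to 21 in whole astrocyte TRAP. In the same fits 1874 to 3380 of all genes were higher and 1171 to 2642 lower, with 14183 to 14852 genes tested. The share of higher calls among all genes called was 59.9% with edgeR, 46.7% with limma voom and 49.8% with endfeet libraries 4 to 6 only, and the median log2 fold change of all genes was 0.10, -0.29 and -0.16. It was 0.23 with DESeq2 and -0.22 with the replicate block. Same-numbered libraries did not deviate together (r = -0.03, 0.02 and 0.03 for the 3 pairs, 0.00062 on average for the 6 others), so the numbers were not taken as pairs. With the replicate block 20 members were higher and 1 lower, and 38 partners were higher and 0 lower. Of all 14427 genes tested in that fit, 2501 were higher and 1958 lower. Adamts2, Adamts5, Adamts9, Adamts15, Adam5 and Mmp28 lost their calls without single libraries. Bcan, Cdh2, Tnfrsf1a, Pcsk5, Tspan17 and Tspan33 did so among the partners. No result changed direction past the threshold. The depth of endfeet library 6 limits its zeros to under 1.29 CPM.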
